A study of Mus musculus with 4 samples.

Results

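The cells described here are esophageal monocytes that carry transcripts of Mmp19 or Cxcl1. They were chosen by UMIs, the unique molecular identifiers that count RNA molecules in a cell. A monocyte gate took cells with at least 3 summed UMIs of Ly6c2, Vcan, Chil3 and F13a1, at least 1 of Csf1r and at least 5 of Lyz2, with fewer than 10 summed UMIs of C1qa, C1qb and C1qc and fewer than 2 of Cd209a. Within it, cells with fewer than 5 summed UMIs of Cxcl10, Ifit2 and Rsad2, fewer than 5 of Arg1 and Ccl24, and at least 2 of Cxcl1 and Mmp19 were kept. The rule found 204 cells, which is 3.37% of the 6054 cells of the series and 19.6% of the 1039 cells in the gate. They are called Mmp19 or Cxcl1 monocytes below, because 185 of the 204 (90.7%) held Mmp19 and no Cxcl1 UMI, and 13 held both.

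The immune cells (live, CD45+) came from the esophagus of 5 Il20rb knock-out and 5 wild-type mice. IL20RB is a receptor chain through which cytokines of the IL-20 family signal. Animals of both genotypes had gone through the same model of eosinophilic esophagitis, in which the ear was treated daily for 14 days with MC903 (calcipotriol, 1 nmol) and ovalbumin (OVA, 5 mg/mL), drinking water with 1.5 g/l OVA followed for 4 days, OVA (50 mg) was gavaged on days 15 and 17, and organs were taken on day 18. Unchallenged animals were not analysed here, and the labels used here give neither the ages of the mice nor how the allele was made. Each animal carried its own hashtag antibody, so the animal was the replicate; all were pooled, sorted together and loaded on 2 wells.

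Classical monocytes are blood-borne phagocytes that enter inflamed tissue through CCR2 and there turn into macrophages or dendritic-like cells. Mmp19 encodes a secreted matrix metalloproteinase that cuts basement membrane proteins. Cxcl1 encodes a chemokine that draws neutrophils through CXCR2, is induced by NF-kappaB, and lies in a cluster with its relatives Cxcl2 and Cxcl3.

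The promoters of Cxcl1 and of 3 genes that were higher in these cells than in the gate's monocytes below all of the limits above, but not than in the other monocyte groups, are shown because each holds a match to a core NF-kappaB motif. Each sequence is the stretch of 250 bases before the gene's start in the RefSeq table of build GRCm38.p6, written 5′ to 3′ along the gene's strand, with the motif GGNNTTTCC on either strand in capitals. They lie at chr5:90890995-90891244 (plus strand) for Cxcl1, chr5:90785851-90786100 (plus) for Cxcl3, chr10:19015411-19015660 (minus, 1 of the starts listed) for Tnfaip3 and chr12:55492648-55492897 (minus) for Nfkbia.
Cxcl1: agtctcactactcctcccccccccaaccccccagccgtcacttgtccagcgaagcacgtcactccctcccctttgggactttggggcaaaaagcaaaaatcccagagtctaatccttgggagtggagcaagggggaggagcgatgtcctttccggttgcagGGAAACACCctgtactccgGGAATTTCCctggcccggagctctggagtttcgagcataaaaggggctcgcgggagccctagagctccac
Cxcl3: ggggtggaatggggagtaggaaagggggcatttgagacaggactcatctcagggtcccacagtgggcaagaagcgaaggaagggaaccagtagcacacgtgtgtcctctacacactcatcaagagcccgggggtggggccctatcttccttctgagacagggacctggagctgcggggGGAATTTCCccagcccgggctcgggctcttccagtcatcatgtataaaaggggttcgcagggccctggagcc
Tnfaip3: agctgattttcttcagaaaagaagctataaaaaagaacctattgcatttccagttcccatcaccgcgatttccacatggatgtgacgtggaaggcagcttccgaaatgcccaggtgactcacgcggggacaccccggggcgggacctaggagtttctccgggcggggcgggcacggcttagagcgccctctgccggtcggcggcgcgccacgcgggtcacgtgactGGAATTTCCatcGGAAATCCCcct
Nfkbia: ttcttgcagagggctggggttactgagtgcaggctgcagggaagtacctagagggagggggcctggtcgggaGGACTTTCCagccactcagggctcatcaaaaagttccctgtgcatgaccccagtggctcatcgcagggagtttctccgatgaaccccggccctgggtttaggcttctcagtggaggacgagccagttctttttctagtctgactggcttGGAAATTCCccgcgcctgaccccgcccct
The motif was present in 4.93% of all 32851 promoters of the table. Of 8 genes looked up (Mmp19, Cxcl1, Cxcl2, Cxcl3, Tnfaip3, Nfkbia, Lmna and Emp1), 7 matched an entry and 5 held the motif. These genes were picked by hand with NF-kappaB targets among them, so the count is no sign of enrichment. A gene counted if any of its listed starts matched, whereas the shares over the table are per promoter. The AP-1 motif TGANTCA was in those of Tnfaip3 and Emp1, against 6.75% of all promoters. The C/EBP motif TTGCNNAA was in 0 of the 7, against 9.56% of all promoters. A match describes these letters only.

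The median depth was 5992 UMIs and 1965 genes per Mmp19 or Cxcl1 monocyte, against 5269 UMIs over all cells. The wells gave 88 and 116 of the cells, and 10 lay in the top 5% of UMIs of their well. The wells shared 2 cell barcodes, and 1 of the chosen cells has one of them. Doublets were not called, and 16 of the cells held 3 or more UMIs of lymphoid or mast cell markers. Il20rb had 0 UMIs in these cells in the knock-out and wild-type animals with 10 or more of them, so it could not check the genotype labels here.

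The values that chose the cells are a description. Mmp19 had 1129 UMIs in the 204 cells, with a median of 4 and a maximum of 31 per cell, and Cxcl1 had 127 UMIs in 19 cells. These are 15.5% of all Mmp19 UMIs and 5.50% of all Cxcl1 UMIs of the series, so most of both lay in other cells. Cells high in C1q held 28.2% of the Mmp19 and 42.4% of the Cxcl1 UMIs, and cells with neutrophil receptors held 20.4% of the Cxcl1 UMIs. The 2029 cells that fell in none of the marker gates used held 30.5% of the Mmp19 and 21.0% of the Cxcl1 UMIs. Csf1r had a UMI in 100% of the chosen cells, as the rule required, and Vcan in 68.6%.

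Background from free RNA was low for both genes. In cells with T cell receptor transcripts, which should lack them, 1.37% had an Mmp19 UMI and 1.02% a Cxcl1 UMI, at a median of 3173 UMIs. In the gate's monocytes below all 3 limits, called monocytes without programs here, 0.690% had a Cxcl1 UMI (95% exact binomial interval 0.0836% to 2.47%, counting error only). For Mmp19 this share was 30.7% (25.4% to 36.3%) at a median of 5550 UMIs. The rule kept every gate cell with 2 or more summed Cxcl1 and Mmp19 UMIs out of this group. Both shares were thus limited by the choice and cannot be set against the background.

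At the edge of the rule, 58 cells had exactly 2 summed UMIs and 91 cells just outside had exactly 1. A UMI of Cxcl1 or Mmp19 was no mark of these cells alone, since 48.9% of the 444 monocytes past the Cxcl10, Ifit2 and Rsad2 limit (interferon-gene monocytes) and 56.4% of the 101 past the Arg1 and Ccl24 limit (Arg1/Ccl24 monocytes) also had at least 2. The 154 gate cells past both limits were counted as interferon-gene monocytes.

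The monocyte markers Ly6c2, Vcan, Csf1r, Lyz2 and F13a1 were part of the gate and cannot check the identity. Of the markers outside it, 4 are given here, all detected in the pooled cells, in CPM (UMIs scaled to a common library total): Plac8 at 1253 CPM, the chemokine receptor Ccr2 at 941, Ms4a6c at 638 and the Fc receptor Fcgr1 at 286. Sums of T cell, eosinophil and epithelial markers were 0 CPM in all 7 animals with 10 or more cells, with every listed marker at 0. Neutrophil markers summed to 44.0 to 155 CPM, with Mmp9, Ly6g, Camp and Ngp at 0. Macrophage markers summed to 858 to 1549 CPM, led by Apoe. Markers of type 2 conventional dendritic cells summed to 325 to 653 CPM, led by Sirpa. Over pooled cells they stood at 407 CPM, against 348 CPM in monocytes without programs. Type 1 dendritic cell markers summed to 80.7 to 169 CPM, led by Batf3, with Xcr1 at 0. Markers of type 2 innate lymphoid cells summed to 11.6 to 191 CPM, led by Il7r, with Gata3, Il13 and Il5 at 0. Cycling markers summed to 6.29 to 1260 CPM, highest in knock-out animal 3.

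The 19 cells with Cxcl1 differed in level from the 185 others for inflammatory transcripts. They were chosen by Cxcl1 and came from 8 animals, with 8 cells and 61 of the 127 Cxcl1 UMIs from wild-type animal 5, so their values carry no test, and the intervals cover counting error only. Cxcl2, a neutrophil attractant of the same cluster, stood at 8798 CPM (8306 to 9312) in them, against 1736 CPM (1662 to 1813) in the others. Nfkbia, the NF-kappaB inhibitor, stood at 1527 CPM (1326 to 1749) against 452 CPM (415 to 492).

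The cytokine Tnf stood at 288 CPM (205 to 393) in the cells with Cxcl1 and at 54.6 CPM (42.2 to 69.6) in the others. Ptgs2, the inducible cyclooxygenase, stood at 354 CPM (261 to 469) and 47.9 CPM (36.3 to 62.1), and Il1b at 1556 CPM (1353 to 1781) and 749 CPM (700 to 799). Mmp19 ran the other way, at 406 CPM (55 UMIs in 13 of the 19 cells) against 902 CPM (1074 UMIs in all 185), and the rule summed both genes. The median depths were 6306 and 5960 UMIs.

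The knock-out animals gave 23, 9, 11, 6 and 13 Mmp19 or Cxcl1 monocytes and the wild-type animals 28, 6, 30, 24 and 54. As shares of each animal's cells these were 2.62%, 2.31%, 4.06%, 1.44% and 1.91% in knock-out animals, against 3.12%, 0.942%, 3.71%, 4.80% and 9.34% in wild-type animals. The genotypes overlapped, with the highest share in wild-type animal 5 and the lowest in wild-type animal 2. The mean was 2.47 ± 0.992% in knock-out and 4.38 ± 3.11% in wild-type animals (SD, n = 5 each; two-sided exact permutation p = 0.238, adjusted over both shares p = 0.405; smallest possible p 0.00794).

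Within the gate the mean share was 20.5 ± 20.3% in knock-out and 30.1 ± 14.8% in wild-type animals (exact permutation p = 0.405, adjusted p = 0.405, n = 5 each). Within the wells, the difference in the share of all cells was -2.04 percentage points in well 1 (exact permutation p = 0.246) and -1.77 in well 2 (p = 0.270). Without wild-type animal 2 it was -2.77 points (exact permutation p = 0.0317), and without wild-type animal 5 it was -0.674 (p = 0.468). With no limit on interferon and Arg1/Ccl24 genes, 478 cells passed and the difference in the share of all cells was 0.416 points (exact permutation p = 0.905). In the share of the gate it was -8.99 points (exact permutation p = 0.286). The direction thus depends on those limits for the share of all cells but not for the share of the gate.

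**Figure D1:**
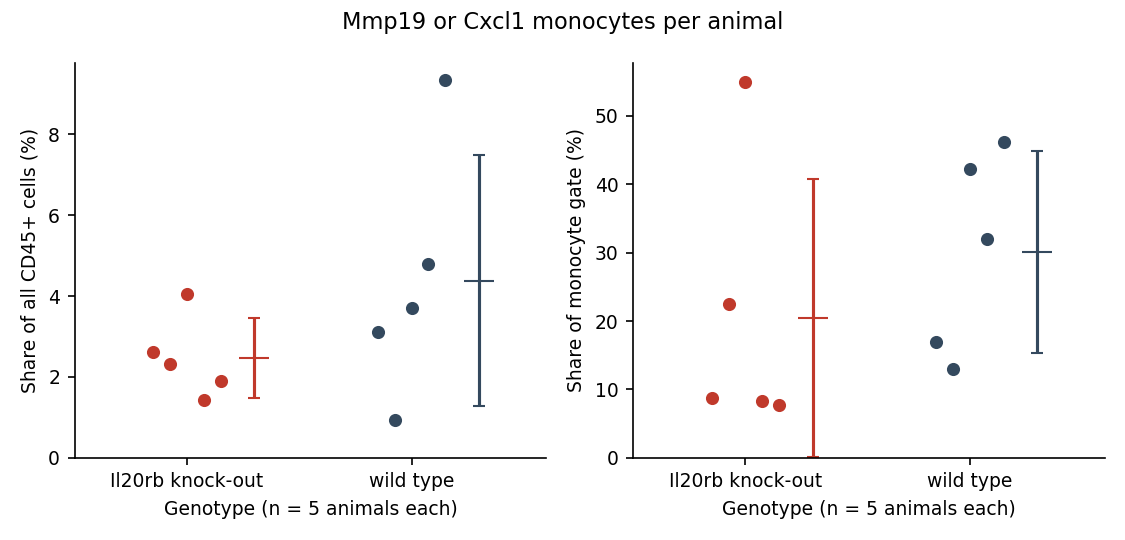
Share of Mmp19 or Cxcl1 monocytes among all CD45+ cells (left, %) and within the monocyte gate (right, %), with 1 point per animal and the mean ± SD beside it. In the left panel the 5 knock-out animals lie between 1.44% and 4.06% and the 5 wild-type animals between 0.942% and 9.34%, so the genotypes overlap.

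Against the monocytes without programs of the same animals, Mmp19 or Cxcl1 monocytes had higher levels of Lmna, Emp1, Vim and Cd44. The chemokine Ccl2 and the NF-kappaB feedback genes Tnfaip3 and Nfkbia were higher as well, and Cx3cr1, Gngt2 and Il17ra were lower. In 6 animals (2 knock-out, 4 wild-type) with 10 or more cells of both groups, 96 genes (2.76% of 3483 tested) were higher and 86 (2.47%) lower at an edgeR quasi-likelihood adjusted p under 0.05, with the animal as a block and the rule's own genes left out. Of these, 69 of the 96 were higher in every animal and 62 of the 86 lower in every animal.

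Lmna encodes the lamins A and C of the nuclear envelope. Its level in Mmp19 or Cxcl1 monocytes was 1514 and 1231 CPM in knock-out animals 1 and 5 and 1217, 2413, 1808 and 1585 CPM in wild-type animals 1, 3, 4 and 5. In monocytes without programs it was 350 and 430 CPM in the same knock-out animals and 646, 1131, 874 and 688 CPM in the same wild-type animals. The groups did not overlap (1628 ± 445 against 686 ± 288 CPM, SD, n = 6; log2 fold 1.30 ± 0.12 SE, adjusted p = 7.57e-11). Over pooled cells, as a description, Lmna stood at 434 CPM with 0 summed UMIs of Cxcl1 and Mmp19 and at 842 CPM with 1, both outside the rule. Inside it, Lmna stood at 1188 CPM with 2 UMIs, 854 CPM with 3, 1289 CPM with 4, 1132 CPM with 5 and 1873 CPM with 6 or more, which is no steady rise.

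Emp1, a membrane protein of the claudin superfamily, was higher in every animal, at 571 ± 166 against 289 ± 144 CPM (log2 fold 1.03 ± 0.14, adjusted p = 1.44e-06). Vim, the intermediate filament vimentin, stood at 7078 ± 1477 against 4735 ± 1252 CPM (log2 fold 0.59 ± 0.09, adjusted p = 1.47e-05), and Cd44, the hyaluronan receptor, at 1851 ± 238 against 1174 ± 93.6 CPM (0.65 ± 0.11, adjusted p = 4.96e-05). Both were higher in all 6 animals. The calls of Lmna, Emp1, Vim and Cd44 held with each animal left out in turn. In well 1 alone, where 2 animals had enough cells, neither Lmna (log2 fold 0.75) nor Emp1 (0.54) passed, while both passed in well 2 (1.45 and 0.93). Without the animal block neither passed, at log2 folds of 1.26 and 1.03; over the alternatives run, the highest adjusted p was 0.120 for Lmna and 0.757 for Emp1.

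The genes named next are the 12 largest rises and 12 largest falls among genes called, at 50 CPM or more and moved in 1 direction in every animal. Plk2, a polo-like kinase, had the largest log2 fold of the rises named here, at 57.5 ± 34.0 against 14.6 ± 5.69 CPM (log2 fold 1.90 ± 0.45, adjusted p = 0.00543), and lost its call without knock-out animal 1 or wild-type animal 5. Nrp2, a co-receptor for semaphorins and VEGF, stood at 82.1 ± 48.1 against 28.3 ± 15.2 CPM (1.47 ± 0.32, adjusted p = 0.00222) and lost its call without knock-out animal 1. The other 8 of the 12 largest rises beside Lmna and Emp1 included the A20 gene Tnfaip3, the podosome scaffold Sh3pxd2b, Basp1, the pseudokinase Peak1, the sphingomyelin synthase Sgms1, the zinc importer Slc39a14, Crip2 and Rreb1, with log2 folds of 1.07 to 1.32. Of these 8, Tnfaip3 and Basp1 kept their call with each animal left out.

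Cx3cr1, the fractalkine receptor, which marks patrolling monocytes, was lower. It stood at 41.1 and 83.6 CPM in knock-out and 56.3, 96.3, 175 and 64.2 CPM in wild-type animals in Mmp19 or Cxcl1 monocytes, against 175 and 177 CPM and 190, 277, 186 and 176 CPM in monocytes without programs. Every animal was lower, and the highest of the first group and the lowest of the second both stood at 175 CPM (log2 fold -1.26 ± 0.21, adjusted p = 4.96e-05). The nonclassical monocyte markers summed to 466 CPM in Mmp19 or Cxcl1 monocytes (244 to 617 over animals with 10 or more cells) and to 764 CPM in monocytes without programs (640 to 853), with all 7 markers, Cx3cr1 and Itgal among them, detected in both; their part in this result was not tested.

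Gngt2, a G protein gamma subunit, stood at 59.7 to 220 CPM against 162 to 448 CPM and was lower in all 6 animals (log2 fold -1.23 ± 0.17, adjusted p = 1.44e-06). Il17ra, the shared chain of the IL-17 receptors, averaged 61.0 ± 32.2 against 170 ± 35.2 CPM (-1.35 ± 0.23, adjusted p = 4.99e-05). Ypel3 had the largest fall of those named here, at 20.6 ± 10.3 against 77.9 ± 24.6 CPM (-1.99 ± 0.34, adjusted p = 6.20e-05). The other 8 of the 12 largest falls were Limd2, the mitophagy receptor Bnip3l, the lectin Cd302, Mettl9, Igsf6, Rassf5, Sorl1 and the lamina-associated Tmpo, with log2 folds of -1.35 to -1.11. Mettl9 and Sorl1 lost their calls without knock-out animal 1 or wild-type animal 1, and Sorl1 also without wild-type animal 3. Over the alternatives run, Gngt2 was called in 22 of 22 and Ypel3 in 17 of 18. Il17ra was called in 20 of 22, with log2 folds of -2.47 to -0.24. Bnip3l and Igsf6 were each called in 19 of 22 and Cd302 in 17 of 21, with smallest falls of -0.83, -0.50 and -0.62.

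S100a8, a neutrophil alarmin, was lower as well, at 12.5 ± 12.8 against 238 ± 320 CPM (adjusted p = 4.22e-05). It was lower in 4 of the 6 animals, higher in wild-type animal 3 (19.3 against 11.8 CPM) and at 0 in both groups of wild-type animal 4. The whole neutrophil marker list summed to 83.7 CPM in Mmp19 or Cxcl1 monocytes and to 450 CPM in monocytes without programs, where Ly6g, Camp and Ngp were at 0; its part in this result was not tested.

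**Figure D2:**
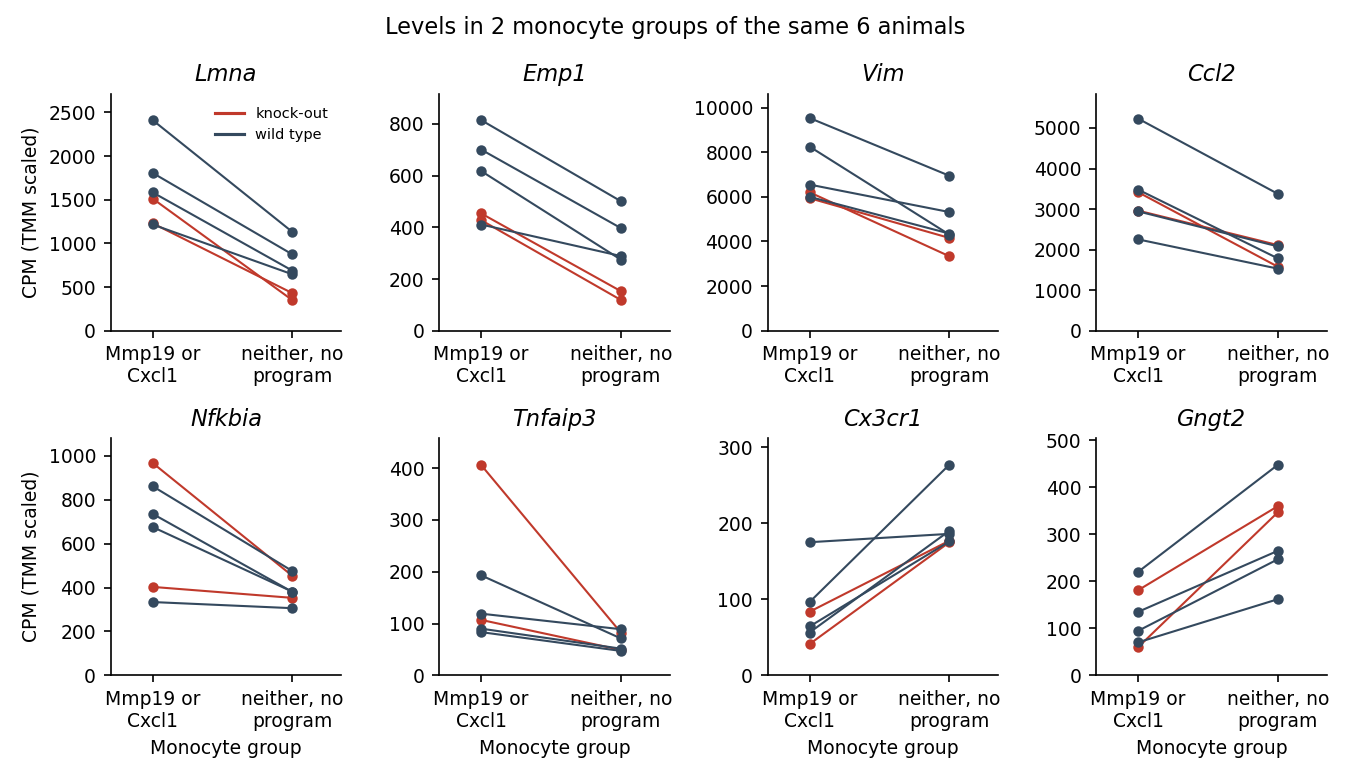
Levels (CPM after TMM scaling, linear axes from 0) of 8 genes in Mmp19 or Cxcl1 monocytes (left in each panel) and in monocytes without programs (right) of the same 6 animals, joined by lines. Lmna, Emp1, Vim, Ccl2, Nfkbia and Tnfaip3 are higher on the left in every animal, and Cx3cr1 and Gngt2 lower.

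**Figure D3:**
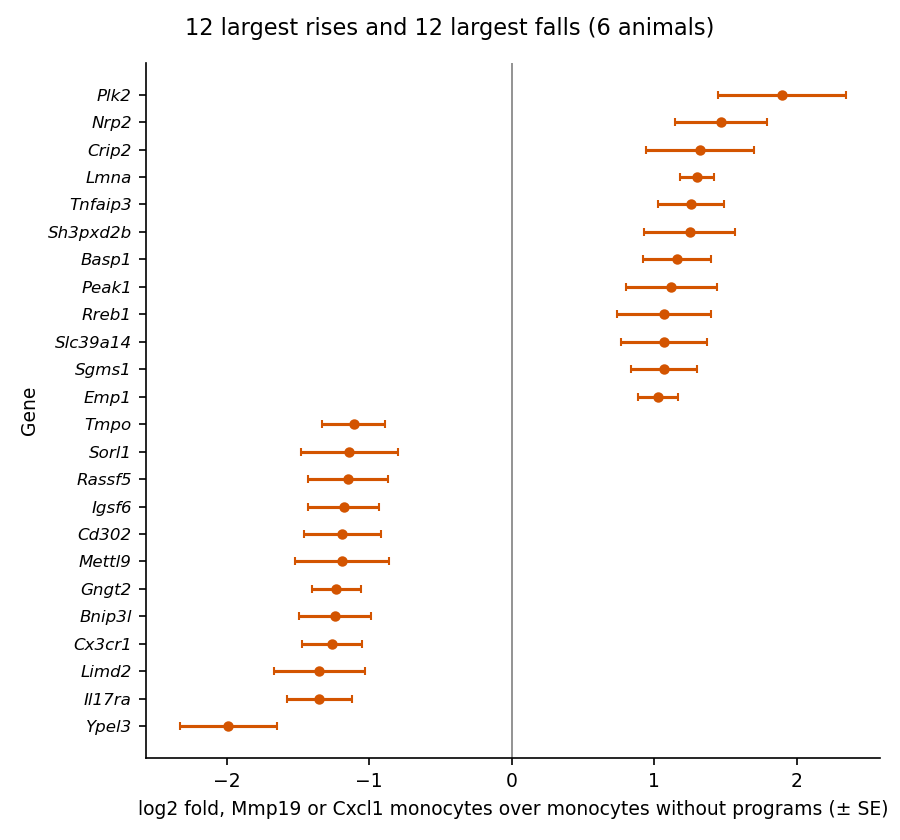
Log2 folds (x axis, ± SE) of the 12 largest rises and 12 largest falls, among called genes at 50 CPM or more that moved 1 way in every animal, in Mmp19 or Cxcl1 monocytes over monocytes without programs (6 animals). The rises run from 1.03 (Emp1) to 1.90 (Plk2), and the falls from -1.11 (Tmpo) to -1.99 (Ypel3).

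Of the neutrophil-attracting chemokines, 1 of 5 tested was higher and 0 lower (median log2 fold 1.17, against 0.01 over all genes tested). That gene was Cxcl3, with 84 UMIs in Mmp19 or Cxcl1 monocytes and 4 in monocytes without programs (adjusted p = 1.44e-06). It stood at 8.23 and 0 CPM in knock-out and at 158, 0, 105 and 135 CPM in wild-type animals, against 0 and 0 CPM and 3.96, 0, 0 and 14.2 CPM, so it was seen in 4 of the 6 animals. Over pooled cells, 21 Cxcl3 UMIs lay in the 19 cells with Cxcl1 (155 CPM) and 63 in the 185 others (52.9 CPM). Cxcl2 stood at 2751 ± 1082 against 1252 ± 600 CPM and was higher in all 6 animals without passing the test (log2 fold 1.17 ± 0.33, adjusted p = 0.134).

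Of the monocyte-attracting chemokines, 3 of 5 were higher and 0 lower (median 0.63). Ccl2, the main ligand of CCR2, stood at 2962 and 3417 CPM in knock-out and 3481, 2253, 2944 and 5231 CPM in wild-type animals. In monocytes without programs it stood at 2112 and 1578 CPM and at 1784, 1531, 2080 and 3375 CPM. Each animal was higher (log2 fold 0.71 ± 0.10, adjusted p = 2.36e-06), though the ranges overlapped. Ccl9 (0.63, adjusted p = 0.0264) and Ccl6 (0.50, adjusted p = 0.0422) were higher in 5 and 4 animals, and both lost their call without knock-out animal 5 or wild-type animal 3, Ccl6 also without knock-out animal 1 or wild-type animal 5.

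Of the NF-kappaB targets and inflammatory cytokines, 3 of 19 tested were higher and 0 lower (median 0.38). The feedback inhibitors Tnfaip3 and Nfkbia averaged 166 ± 124 against 65.0 ± 18.3 CPM (log2 fold 1.26 ± 0.23, adjusted p = 0.000222) and 663 ± 251 against 391 ± 62.8 CPM (0.70 ± 0.13, adjusted p = 0.000303), and both were higher in all 6 animals. Tnf (80.1 ± 65.8 against 39.0 ± 19.1 CPM, adjusted p = 0.0453) was higher in 4 animals and lost its call without any of 4 animals, knock-out 1 or 5 and wild-type 3 or 5. The rule kept gate cells with 2 or more Cxcl1 UMIs out of the monocytes without programs. Over pooled cells, Nfkbia stood at 1527 CPM in the 19 cells with Cxcl1 and 452 CPM in the 185 others. Tnfaip3 stood at 273 and 113 CPM and Tnf at 288 and 54.6 CPM. A refit with only the cells without a Cxcl1 UMI was run as an alternative, and its values for these 3 genes are not reported here. Whether these calls hold for the cells without a Cxcl1 UMI is therefore not shown here.

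Of the matrix and fibrinolysis genes, 2 of 13 were higher and 0 lower (median 0.23). These were Sdc4, the heparan sulfate proteoglycan syndecan 4 (219 ± 72.4 against 106 ± 37.8 CPM, log2 fold 1.01 ± 0.18, adjusted p = 0.000222), and the membrane protease Adam8 (316 ± 75.9 against 206 ± 54.1 CPM, 0.63 ± 0.14, adjusted p = 0.00398). The inhibitor Timp1, at 104 ± 99.4 against 26.2 ± 23.1 CPM, did not pass (adjusted p = 0.159).

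Of the immediate early and dissociation genes, 9 of 21 were higher and 0 lower (median 0.40). Fos (2376 ± 442 against 1675 ± 328 CPM, log2 fold 0.50 ± 0.11, adjusted p = 0.00227) and Atf3 (1028 ± 322 against 703 ± 162 CPM, 0.51 ± 0.12, adjusted p = 0.00495) kept their call with each animal left out. The others, Junb, Dusp1, Ier3, Egr1, Klf6, Hspa1b and Hsp90aa1, each lost it without at least 1 animal. These genes also answer to tissue digestion, which lasted 30 min here and was shared by the cells compared; its part was not tested.

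Of the innate sensing genes, 2 of 8 were higher, the endotoxin co-receptor Cd14 (657 ± 102 against 453 ± 44.1 CPM, adjusted p = 0.00344) and the lectin Clec4d (247 ± 58.0 against 151 ± 64.5 CPM, adjusted p = 0.0147), whose call ended without knock-out animal 5. Of the chemotactic receptors and adhesion molecules, 1 of 11 was higher, the complement receptor C5ar1 (log2 fold 0.77 ± 0.18, adjusted p = 0.00355), and 2 were lower, Cx3cr1 and the integrin Itgal (-0.73 ± 0.18, adjusted p = 0.00730). Of the prostaglandin and leukotriene genes 1 of 5 was higher, Ptges3 (0.54, adjusted p = 0.0459), which lost its call without any of knock-out animals 1 and 5 and wild-type animals 1 and 3. No gene was called among the 7 MHC class II, 14 glycolysis and hypoxia, 7 NRF2 and metal stress, 5 alternative activation, 4 IL-10 and IL-20 receptor list, 4 genotype-linked, 3 growth factor and 2 coagulation genes tested.

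Within a well, where fewer cells enter, 19 genes were called in well 1 and 33 in well 2. DESeq2 called 39 higher and 18 lower, and without the animal block 13 and 13 were called. Leaving out knock-out animal 1 left 109 calls and leaving out wild-type animal 5 left 117.

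Against the interferon-gene monocytes, the interferon response was lower by selection, and most of the monocyte-attracting chemokines and of the NRF2 and metal stress genes tested were lower beside it. In 5 animals (2 knock-out, 3 wild-type), 157 genes (5.07% of 3096) were higher and 390 (12.6%) lower. Library sizes without TMM scaling moved this split to 296 and 321, with a median log2 fold of 0.13 over all genes against 0.02. All 14 interferon response genes tested were lower, among them Ifit3 at 42.6 ± 37.7 against 579 ± 340 CPM, as a limit on Cxcl10, Ifit2 and Rsad2 would select, so no support is taken from them.

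Retnla, the secreted resistin-like molecule alpha of alternatively activated cells, had the largest log2 fold of the genes called higher. Its level in Mmp19 or Cxcl1 monocytes was 1097 and 1901 CPM in knock-out and 3097, 595 and 3350 CPM in wild-type animals, against 33.6 and 23.0 CPM and 23.0, 9.79 and 51.9 CPM in interferon-gene monocytes. The groups were far apart in every animal (log2 fold 5.99 ± 0.23, adjusted p = 1.25e-14). Against monocytes without programs Retnla did not pass (log2 fold 2.17 ± 2.20, adjusted p = 0.721), with 4160 and 2044 CPM in monocytes without programs of wild-type animals 4 and 3.

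Of the monocyte-attracting chemokines, 5 of 6 were lower than in interferon-gene monocytes and 0 higher (median -1.73, against 0.02 over all genes). The count and median include Ccl8 (2.44 against 214 CPM), which entered the test through the interferon-gene monocytes alone. Its call therefore carries no support. Ccl7, a second CCR2 ligand, stood at 1240 ± 377 against 5602 ± 1407 CPM (log2 fold -2.17 ± 0.24, adjusted p = 0.000650), and Ccl2 at 3577 ± 892 against 8818 ± 2661 CPM (-1.28 ± 0.28, adjusted p = 0.0360), both lower in all 5 animals. The call of Ccl2 ended without knock-out animal 1 or 5. Cxcl2 stood at 2893 ± 1067 against 6296 ± 3346 CPM (-1.07 ± 0.24, adjusted p = 0.0222), and its call ended without wild-type animal 1.

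Of the NRF2 and metal stress genes 5 of 8 were lower and 0 higher, among them the ferritin heavy chain Fth1 (4223 ± 1625 against 10088 ± 4005 CPM, -1.24 ± 0.18, adjusted p = 0.000534) and heme oxygenase Hmox1 (276 ± 187 against 721 ± 267 CPM, -1.47 ± 0.23, adjusted p = 0.000155). Of the MHC class II genes 3 of 6 were higher and 0 lower, led by the peptide loading chain H2-DMa (542 ± 159 against 257 ± 91.5 CPM, 1.12 ± 0.18, adjusted p = 1.53e-05). Without wild-type animal 1, 345 genes were called in this comparison, and in well 2 alone 143.

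Against the Arg1/Ccl24 monocytes, Lgmn, Ctsl and Fth1 were among the genes that were lower. This fit used 6 animals with 5 or more cells of both groups (2 knock-out, 4 wild-type), and 31 genes (1.14% of 2720) were higher and 52 (1.91%) lower. Lgmn, the lysosomal protease legumain, stood at 243 ± 64.9 against 942 ± 240 CPM (log2 fold -1.90 ± 0.24, adjusted p = 1.79e-06). Ctsl, cathepsin L, stood at 255 ± 157 against 989 ± 646 CPM (-1.89 ± 0.25, adjusted p = 3.55e-06) and Fth1 at 4372 ± 1031 against 10296 ± 3553 CPM (-1.19 ± 0.16, adjusted p = 3.55e-06). All 3 were lower in every animal.

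Of the monocyte-attracting chemokines 3 of 6 were lower than in Arg1/Ccl24 monocytes, Ccl6, Ccl8 and Ccl9, and 0 higher. Ccl8 (0.982 against 119 CPM) entered the test through the Arg1/Ccl24 monocytes alone, so its call carries no support. Ccl6 stood at 2006 ± 654 against 4007 ± 673 CPM (log2 fold -1.05 ± 0.17, adjusted p = 0.000170). Of the glycolysis and hypoxia genes 4 of 13 were lower, Pfkl, Pgam1, Hif1a and Ldha, and 0 higher (median -0.64, against 0.00). Clec4e, the mycobacterial lectin Mincle, stood at 327 ± 163 against 144 ± 37.0 CPM (1.24 ± 0.26, adjusted p = 0.00280), and its call ended without knock-out animal 1. The macrophage markers summed to 1333 CPM in Mmp19 or Cxcl1 monocytes and 3153 CPM in Arg1/Ccl24 monocytes, led by Apoe in both; their part was not tested. Leaving out knock-out animal 1 left 22 calls, and leaving out wild-type animal 1, 2 or 3 left 42, 53 or 44; 17 were made in well 1 and 16 in well 2.

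The 3 comparisons share Mmp19 or Cxcl1 monocytes of some animals, though the animals fitted differ. Lmna, Vim, Cd44, the calcium pump Atp2b1, the actin-binding Tagln2 and the membrane protein Myadm were called higher in all 3, and the transcription factor Irf8 and S100a8 lower. For Lmna the log2 folds were 1.30 ± 0.12 over monocytes without programs, 1.13 ± 0.13 over interferon-gene monocytes and 1.13 ± 0.21 over Arg1/Ccl24 monocytes. Irf8 stood at 33.5, 29.6 and 41.5 CPM in the Mmp19 or Cxcl1 monocytes of the 3 fits, against 88.4, 137 and 132 CPM in monocytes without programs, interferon-gene monocytes and Arg1/Ccl24 monocytes. Lmna was the gene of these 8 whose call held in all 3 fits with each animal left out in turn.

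**Figure D4:**
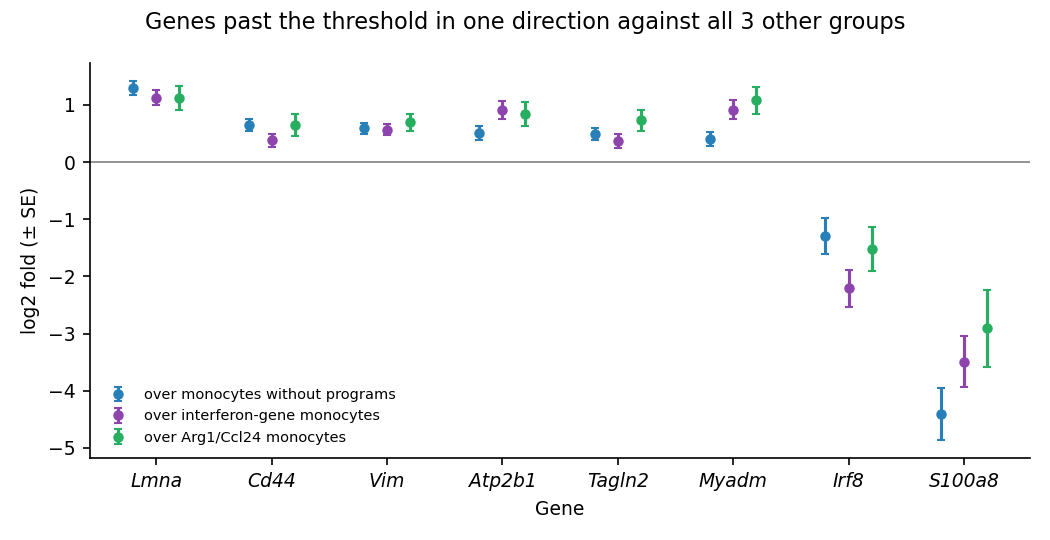
Log2 folds (y axis, ± SE) of the 8 genes called in 1 direction in Mmp19 or Cxcl1 monocytes against each of the 3 other monocyte groups, marked by colour. Lmna lies between 1.13 and 1.30 in the 3 comparisons, and Irf8 and S100a8 lie below 0.

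Between genotypes, the Mmp19 or Cxcl1 monocytes of 3 knock-out and 4 wild-type animals with 10 or more cells gave 1 called gene, Rpl29. The edgeR test called 0 genes higher in knock-out animals (0%) and 1 lower (0.0426% of 2348), with 185 genes at an unadjusted p under 0.05, and DESeq2 called 4 higher and 3 lower. The sums per animal held 88780 to 317892 UMIs.

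Rpl29, a ribosomal protein gene at chr9:106428889-106431568 (GRCm38.p6), stood at 677, 370 and 553 CPM in knock-out animals 1, 3 and 5, against 1553, 1198, 1262 and 1245 CPM in wild-type animals 1, 3, 4 and 5. The genotypes did not overlap (log2 fold -1.29 ± 0.21, adjusted p = 0.0463). The adjusted p was between 0.0342 and 0.198 with 1 animal left out and stayed under 0.05 only without knock-out animal 1. Rpl29 lies on the same chromosome as Il20rb (chr9:100457719-100486473). Both Rpl29 and Gm42031 had been listed for a genotype difference in earlier work on these data, so their values are not independent evidence. How reads shared with its pseudogenes were counted is not given in the sources used here.

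The 4 other genes of lowest p in the lower direction did not pass the test. The chemokine receptor Cxcr4 stood at 89.1, 102 and 64.3 CPM in knock-out animals, against 168, 402, 239 and 353 CPM in wild-type animals (log2 fold -1.76 ± 0.37, adjusted p = 0.255). Thbs1, the matrix glycoprotein thrombospondin 1, stood at 232, 89.4 and 232 CPM, against 1193, 878, 426 and 1242 CPM in wild-type animals (-2.33 ± 0.45, adjusted p = 0.276). Neither gene overlapped between the genotypes. Both genes, like Rpl29, were picked by low p, so their separation carries no added support. The share of all tested genes without overlap is not reported here.

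The anti-proliferative Btg1 stood at 508, 409 and 425 CPM in knock-out animals, against 911, 946, 590 and 958 CPM in wild-type animals (log2 fold -0.93 ± 0.22, adjusted p = 0.276). The unnamed transcript Gm42031 had 0 UMIs in knock-out and 110 in wild-type animals, a level at least 13.6-fold lower in knock-out cells when set against 3 counts over the group (adjusted p = 0.255).

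In the higher direction, 3 of the 5 genes of lowest p belong to MHC class II presentation, and 0 of the 5 passed. Cd74, the class II invariant chain, stood at 6386, 10309 and 5841 CPM in knock-out animals, against 1697, 2757, 1733 and 3590 CPM in wild-type animals (log2 fold 1.62 ± 0.33, adjusted p = 0.276). H2-DMb1 averaged 395 ± 28.4 in knock-out and 180 ± 66.4 CPM in wild-type animals (SD, n = 3 and 4; 1.09 ± 0.28, adjusted p = 0.280), and H2-DMa 912 ± 285 and 511 ± 102 CPM (0.83 ± 0.23, adjusted p = 0.384). All 6 class II genes tested had a positive log2 fold (median 1.55, against -0.01 over all genes), 0 of them called.

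The other higher genes of lowest p were Cacybp, a ubiquitin ligase adaptor (log2 fold 1.21 ± 0.30, adjusted p = 0.276), and Gm42418, an unnamed transcript (0.71 ± 0.16, adjusted p = 0.276). The listed genes that edgeR left out for low counts, 85 with a UMI, were compared by exact permutation over the 7 animals, and 0 passed adjustment (lowest adjusted p = 0.962; smallest possible p 0.0286). Leaving out knock-out animal 5 gave 0 called genes and leaving out wild-type animal 3 gave 2. In well 2 alone the 1 gene called was Gm42418, higher in knock-out animals, and Rpl29 did not pass; in well 1 too few cells were left for a fit. Leaving out knock-out animal 3 or wild-type animal 5 also gave 1 call in the higher direction and none for Rpl29. Of 19 alternatives, Gm42418 was called in 7, Cd74 in 5 and Rpl29 in 5, with adjusted p of 0.00231 to 0.558, 7.21e-10 to 0.816 and 1.93e-08 to 0.434.

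**Figure D5:**
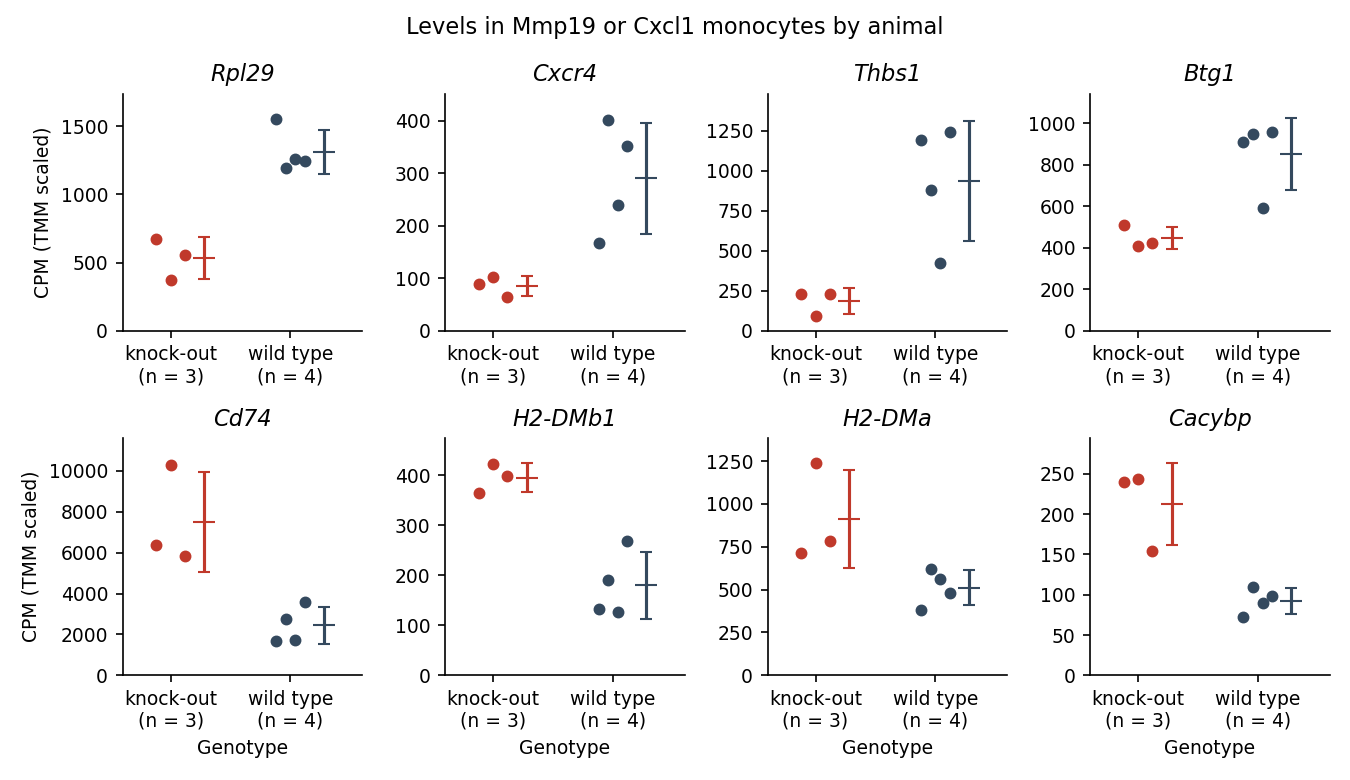
Levels (CPM after TMM scaling, linear axes from 0) in Mmp19 or Cxcl1 monocytes of 3 knock-out animals (left in each panel) and 4 wild-type animals (right), 1 point per animal with the mean ± SD beside it. Rpl29, Cxcr4, Thbs1 and Btg1 lie lower in every knock-out animal than in any wild-type animal, and Cd74, H2-DMb1, H2-DMa and Cacybp higher. The genes shown were picked by low p, so their separation carries no added support. Only Rpl29 passed adjustment.

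Since Rpl29 was the only gene called between genotypes, the directions within the other lists are given as a description. Of the 12 matrix genes tested 11 had a negative log2 fold (median -0.24), including Thbs1 and the urokinase receptor Plaur (169 ± 93.7 CPM in knock-out and 319 ± 40.3 CPM in wild-type animals, adjusted p = 0.571). All 7 NRF2 and metal stress genes had a negative log2 fold (median -0.49) and all 6 interferon response genes a positive one (median 0.77). Cxcl3 had 1 UMI in knock-out and 83 in wild-type animals, of which wild-type animal 3 had none (adjusted p = 0.571).

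Whether the genotype effect differed between Mmp19 or Cxcl1 monocytes and monocytes without programs was tested as an interaction in all 10 animals with 5 or more cells of each group. edgeR called 0 of 3409 genes in either direction (0%), with 217 at an unadjusted p under 0.05, and DESeq2 called 0. For Rpl29 the interaction was -0.97 ± 0.29 on the log2 scale (adjusted p = 0.756) and for Cd74 1.06 ± 0.49 (adjusted p = 0.780). Within the wells 6 genes were called in well 1 and 2 in well 2, and 1 without wild-type animal 5.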

How the data were processed

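The deposited values are raw UMI counts in 1 matrix of genes by cells, made by the authors, with well, genotype and hashtag in each cell name, per the file headers. Cell Ranger 6.0.1, R 4.0.5 and build mm10 are named, without roles, in the submitters' processing notes. Annotation release, strand setting and hashtag calling: not given in the sources used here. The table held 6054 cells of 1000 to 52182 UMIs, so cells had been filtered before deposit. Animals gave 1805883 to 5666994 UMIs. Symbols came from a GRCm38.p6 table, which matched 32158 of 32285 identifiers.

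The chosen cells and the gene lists were set with earlier results of these data known. UMIs were summed per animal and monocyte group, and sums of 10 or more cells entered edgeR 4.0.16 (R 4.3.3; filterByExpr, TMM, robust quasi-likelihood test), with Benjamini-Hochberg adjustment over all genes tested. At least 3 animals per genotype had been planned. The within-animal comparisons with monocytes without programs and with interferon-gene monocytes were run with 2 knock-out animals, and the Arg1/Ccl24 and interaction fits with 5 or more cells, which was chosen after seeing the data. Log2 folds are Mmp19 or Cxcl1 monocytes over the other group, or knock-out over wild type; their SE is the log2 fold over the root of the F statistic. Shares were compared by exact permutation over 252 splits. DESeq2 1.42.0, other scalings, filters and gates, thinning of each cell to 3000 UMIs (which left out 3 knock-out and 5 wild-type cells of the 204) and left-out animals were alternatives. The code was tested on simulated counts.

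Named genes were the 12 largest rises and 12 largest falls against monocytes without programs, among genes called at 50 CPM or more and in 1 direction in every animal. Between genotypes they were the called genes or, with fewer than 5, the 5 of lowest p per direction. Examples came from each list, and the genes called in all 3 comparisons, Vim, Cd44, Retnla, Lgmn and Ctsl among them, were chosen after their values were seen. Results for some listed genes are not reported here.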

Additional observations from a re-analysis of the deposited data

Results flagged for a closer look

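Of 62 groups of 4 to 6 animals examined for a value far from the others, 6 were set apart by Dixon's test, where chance sets apart about 1 in 20. Tnfaip3 stood at 406 CPM in the Mmp19 or Cxcl1 monocytes of knock-out animal 5, above the other 5 animals, and Rassf5 at 77.1 CPM in those of wild-type animal 4. Among monocytes without programs, Il17ra was lowest at 106 CPM and Cx3cr1 highest at 277 CPM in wild-type animal 3, and Tmpo was highest at 212 CPM in knock-out animal 5. Btg1 was lowest at 590 CPM in the Mmp19 or Cxcl1 monocytes of wild-type animal 4.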

How the results depend on the processing

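No paired analysis was possible because, between genotypes, the replicate numbers of the labels name the wells of RNA and hashtag libraries, not animals shared between genotypes; the comparisons between monocyte groups had the animal as a block. Among all cells, the share of Mmp19 or Cxcl1 monocytes kept its direction under the alternatives other than 1. With no limit on interferon and Arg1/Ccl24 genes it went the other way (0.416 percentage points), while the share of the gate did not (-8.99 points). With only the 13 cells that hold both genes, the difference was -0.334 points of all cells (0.0513 ± 0.115% in knock-out and 0.385 ± 0.464% in wild-type animals). The exact permutation p was 0.0397, not adjusted over the alternatives. In the share of the gate this setting gave -2.08 points (exact permutation p = 0.0635). With 1 animal left out the difference was -2.77 to -0.674 points of all cells and -18.2 to -5.58 points of the gate. Against monocytes without programs, 182 genes were called; DESeq2 gave 57, 5 or more cells 113, well 1 19, well 2 33, thinning 99, no animal block 26, wild-type animals alone 67 (4 animals) and knock-out animals alone 171 (2 animals), and leaving out 1 animal gave 109 to 216. Against interferon-gene monocytes 547 were called, DESeq2 giving 331, well 2 143, thinning 336 and a left-out animal 345 to 579. Against Arg1/Ccl24 monocytes 83 were called, DESeq2 giving 39, well 1 17, well 2 16, thinning 31 and a left-out animal 22 to 91. Between genotypes 1 gene was called; DESeq2 gave 7, no filter on low counts 47, 5 or more cells 4, 20 or more cells 3, no cells of the top 5% of UMIs 2, no cells with lymphoid or mast cell UMIs 6, thinning 2 and a left-out animal 0 to 2. Raw library sizes, no robust dispersion, a summed limit of 3, and (added after seeing the data) cells with no Cxcl1 UMI gave 0. The interaction had 0 calls, 6 in well 1, 2 in well 2 and 0 to 1 with an animal left out. The causes were not tested. Of the 24 named genes against monocytes without programs, 0 reversed; the call was lost in 23 of 144 refits with an animal left out and in 84 of 331 others. Of the 10 named between genotypes, 0 reversed; 6 of 67 refits with an animal left out lost a call and 2 gained one, against 8 and 20 of 117 others. Too few animals were left to fit cells with both genes, or well 1 alone between genotypes and against interferon-gene monocytes. The sums per animal, of 88780 UMIs upward, limited the genotype test to 2348 genes.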
